A study of Homo sapiens with 5 samples.

Results

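The genes described here are the cyclins, the cyclin-dependent kinases (CDKs) and the regulators of the E2F-RB pathway in HL-60 cells exposed to decitabine. They were chosen by gene name alone, with patterns for cyclins, CDKs, CDK inhibitors, CKS subunits, CDC25 phosphatases, WEE1 and PKMYT1, E2F and DP factors, the RB family and the MuvB subunits. The rule found 50 of the 6309 genes in the authors' deposited table, and each had 1 transcript. Of 83 genes listed by role under those names, the other 33 had no value and were not analysed here. HL-60 is an established human promyelocytic leukaemia line, labelled wild type in all libraries. Decitabine is a cytidine analogue that enters replicating DNA and traps DNA methyltransferases. The treated wells received a dose of 100 nM at the start and again at 24 and at 48 hours, the control wells received DMSO, and lysates of both were made at 72 hours. Total RNA was sequenced as 2 libraries from decitabine wells and 2 from DMSO wells, per the labels, next to 1 pooled library of ribosome-protected fragments. The title of the pooled library names no treatment or replicate. How its fragments were assigned to decitabine and DMSO, and whether they were replicated, is thus not shown by the titles.

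Cyclins are the regulatory subunits without which CDKs are largely inactive. D-type cyclins with CDK4 and CDK6, and then cyclin E, start the phosphorylation of RB, which releases E2F factors to transcribe the genes of S phase, and cyclin A and cyclin B with CDK1 carry cells through G2 and mitosis. Another branch of the same families does not drive the cycle: cyclins C, K, L and T with CDK8, CDK9, CDK11, CDK12, CDK13 and CDK19 act on RNA polymerase II, Mediator and splicing. Many cell-cycle cyclins are made and destroyed within each cycle, so their levels depend on continued translation.

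Translation efficiency sets the reads of ribosome-protected fragments of a gene against those of its total mRNA. The table gives, per gene, a model coefficient for decitabine against DMSO, and a positive value was read as higher translation efficiency with decitabine. The coefficient was taken as a natural log, because the column names are those that R gives to terms of a generalised linear model, but the base is not stated. As log2 values, the same coefficients would give folds closer to 1. No column belongs to a single library, so values per sample, depth, SD and n cannot be given. Errors below are implied standard errors (SE), obtained as the coefficient over the z score behind its two-sided p-value, and 95% intervals are built from them. A lysate mixes cells of all cycle phases, so a different mix of phases and a different translation per cell cannot be told apart. Nothing in the labels says that the duplicate wells came from separate cultures, so the p-values may hold technical spread only.

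Across the table, 51 of 6309 genes passed an adjusted p below 0.05, 40 of them higher and 11 lower, which is 0.808% of genes in either direction and 0.634% higher. The coefficients had a median of 0.09, not 0, and 65% lay above 0, so each value is also read against that median. The 11 markers listed for myeloid cells such as HL-60 were all in the table, against 1 of 14 lymphoid markers, NKG7, and 0 of 14 erythroid and megakaryocyte markers. The myeloid list had a median coefficient of 0.09, and its 2 calls, MPO and LYZ, were both higher. With the coefficients from the authors' deposited table centred on the median of all genes, neither passed (recomputed adjusted p = 0.0781 and 0.301). CEBPE, a granulocyte transcription factor, was not called in the authors' deposited table (adjusted p = 0.153). With its coefficient from the authors' deposited table centred in the same way, CEBPE was called lower (recomputed adjusted p = 0.0388). By unadjusted p below 0.05 after centring, 4 of the 11 markers were higher, beside 3.69% of all genes, and 1 was lower, beside 4.25%. The list had a median implied SE of 0.13, against 0.25 for all genes, so smaller coefficients were enough for a low p.

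No cyclin, CDK or E2F-RB gene passed the threshold in either direction. The adjusted p-values of the authors' z test ran from 0.119 for CCNY to 0.997 for CDK19, and the background of calls was 0.808% of all genes. Without adjustment, 6 of the 50 genes had a p below 0.05, which is 12%, beside 10.3% of all genes. All 6 were on the higher side, where the background was 8.35%, and none was on the lower side, where it was 1.95%. After subtraction of the median of all genes, 2 genes had an unadjusted p below 0.05, beside 7.94% of all genes. They were CCNY above, beside 3.69% of all genes, and CDKN3 below, beside 4.25%. Again none passed after adjustment, beside 0.586% of all genes. The members' shares lie near the background. The middle of the group lay where the middle of the table lay: its median coefficient was 0.10 against 0.09 for all genes, 25 members were above the median of all genes and 25 below it.

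**Figure D1:**
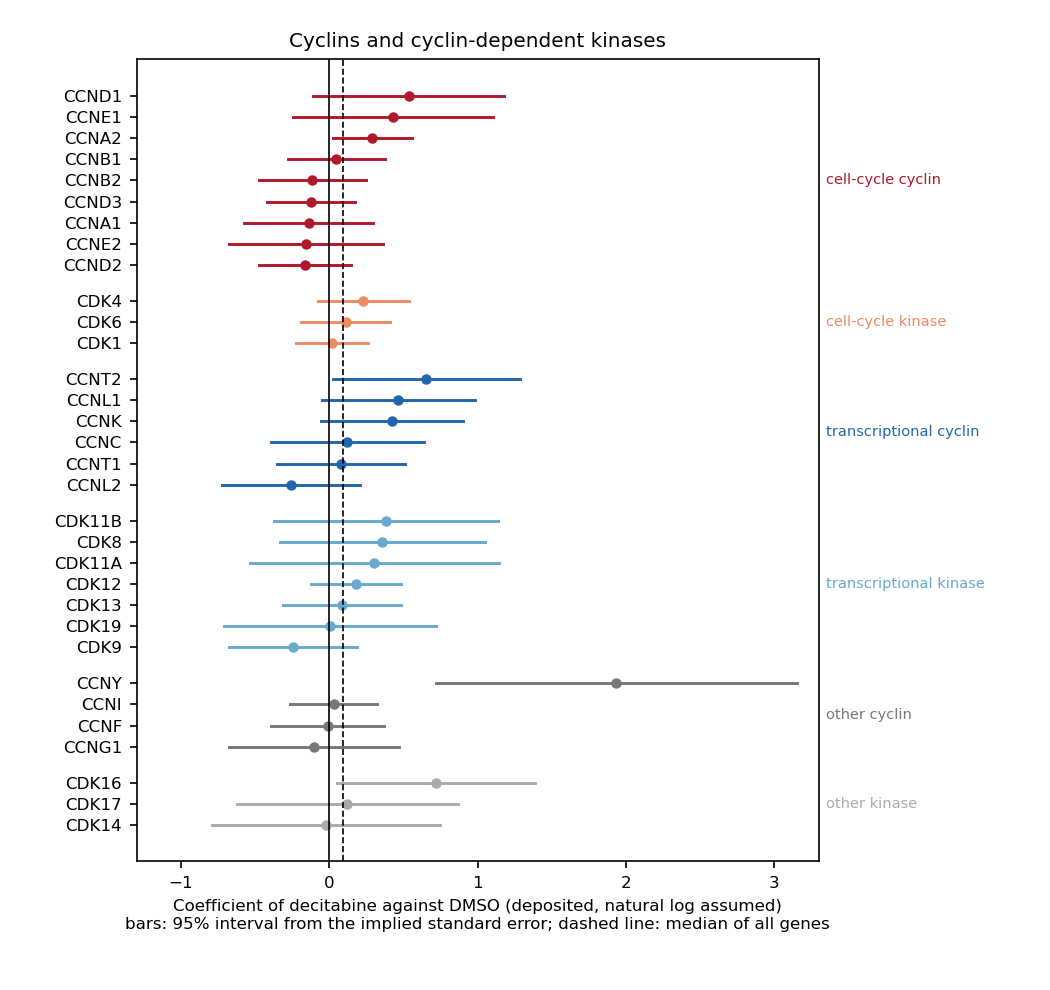
Coefficients of the cyclins and cyclin-dependent kinases in the authors' deposited table, for decitabine against DMSO, by role. Points are coefficients on the assumed natural log scale, bars are 95% intervals from the implied standard error, the solid line is 0 and the dashed line is the median of all genes, 0.09. The interval of CCNY, from 0.72 to 3.15, is the only one drawn here that leaves out that median.

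Among the cell-cycle cyclins, which turn over with the phases, 9 of the 10 listed genes had a value, with a median of -0.12 and a range of -0.17 to 0.53. CCNA2, the cyclin A of S phase and G2 in dividing cells, had a coefficient of 0.29 ± 0.14 (implied SE, unadjusted p = 0.0337, adjusted p = 0.421) in the authors' deposited table. Its interval, 0.02 to 0.56, leaves out 0 but holds the median of all genes. CCNA1, the relative best known from testis and myeloid leukaemia, had -0.14 ± 0.22 in that table. Cyclin A2 sat above and cyclin A1 below 0, by a difference of 0.43 with an interval of -0.08 to 0.94.

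The main pair of mitosis, CCNB1 and CDK1, lay near the middle of the table. CCNB1, the cyclin of mitotic entry, had 0.05 ± 0.17, and CCNB2, its Golgi-linked relative, had -0.12 ± 0.18 in the authors' deposited table. CDK1, the kinase that both activate, had 0.02 ± 0.12 there, which is the smallest implied SE of the 50 genes. The interval of CDK1 ran from -0.23 to 0.26, so that a change as large as the 0.29 of CCNA2 lies outside it.

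The G1 cyclins were spread over both signs. In the authors' deposited table CCND1 had 0.53 ± 0.33, CCND2 had -0.17 ± 0.16 and CCND3 had -0.13 ± 0.15. These are the D-type cyclins that couple growth signals to CDK4 and CDK6, and CCND1 was measured with more than the error of the other D-type cyclins. Cyclin D1 exceeded cyclin D2 by 0.70, with an interval of -0.01 to 1.41, which just includes 0. CCNE1 and CCNE2, the E-type cyclins of the G1 to S transition, had 0.43 ± 0.34 and -0.16 ± 0.26 in the same table, and their intervals overlapped widely.

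Of the cell-cycle kinases, CDK1, CDK4 and CDK6 had values. CDK4 had 0.23 ± 0.16 and CDK6 had 0.11 ± 0.15 in the authors' deposited table, and relative to the median of all genes they lay at 0.13 and 0.01. None of the 3 intervals leaves out 0. CDK2, CDK3 and CCNB3 were not analysed here.

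Among the transcriptional cyclins, 6 of 7 listed genes had a value, with a median of 0.27. Cyclins T1 and T2 are alternative partners of CDK9 in P-TEFb, the kinase that releases paused RNA polymerase II. The authors' deposited table gave CCNT2 a coefficient of 0.65 ± 0.32 (unadjusted p = 0.0420, adjusted p = 0.457), CCNT1 one of 0.08 ± 0.22 and CDK9 itself one of -0.24 ± 0.22. The 3 parts of P-TEFb thus had values on both sides of 0, each interval holds the median of all genes, and relative to that median CCNT1 lay at -0.02.

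Cyclin K and its kinases CDK12 and CDK13, which sustain elongation through long genes, all had positive values. CCNK had 0.42 ± 0.24, CDK12 had 0.18 ± 0.16 and CDK13 had 0.08 ± 0.20 in the authors' deposited table. Relative to the median of all genes, CDK13 lay just below it, at -0.01. In the kinase module of Mediator, CCNC had 0.12 ± 0.26, CDK8 had 0.36 ± 0.35 and CDK19 had 0.01 ± 0.37 in the same table, errors so wide that no order among them can be read.

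The cyclin L genes, which act with CDK11 in splicing and transcription, had values on both sides of 0. CCNL1 had 0.47 ± 0.26 and CCNL2 had -0.26 ± 0.24 in the authors' deposited table. Their difference was 0.72, with an interval of 0.03 to 1.42. This was the only 1 of 16 differences between close relatives whose interval left out 0. The 16 comparisons were added after the values were seen, and their intervals were not adjusted for that number. The errors of the genes were taken as independent. CDK11A and CDK11B, nearly identical neighbouring copies on chromosome 1, had 0.30 ± 0.43 and 0.38 ± 0.39 in the same table. How reads shared by such copies were assigned was not stated in any source used here, which leaves their separate values uncertain. CCNH and CDK7, the CDK-activating kinase of TFIIH, were not analysed here.

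Cell-cycle cyclins and kinases had a lower median than the transcriptional ones. The 12 cell-cycle genes had a median of 0.03 and the 13 transcriptional genes one of 0.18, a difference of -0.15. Without CCNL1, CCNL2, CDK11A and CDK11B it was -0.089. With means weighted by precision, the values were 0.05 and 0.15 and the difference was -0.10. The distance was wider for cyclins, with medians of -0.12 for cell-cycle and 0.27 for transcriptional genes, than for kinases, with 0.11 and 0.18. The weighted means lay closer together, at 0.02 and 0.20 for cyclins and at 0.10 and 0.10 for kinases. These medians rest on 9 and 6 cyclins and on 3 and 7 kinases. Of the cell-cycle genes 7 of 12 lay above 0, against 11 of 13 transcriptional genes and 65% of all genes. Above the median of all genes lay 5 of the 12 and 8 of the 13. Neither group held a call, and each held 1 gene with an unadjusted p below 0.05, CCNA2 and CCNT2, beside 10.3% of all genes. All 25 intervals of both groups include the median of all genes. Genes are not replicates of a condition, so the difference between the groups has no test.

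**Figure D2:**
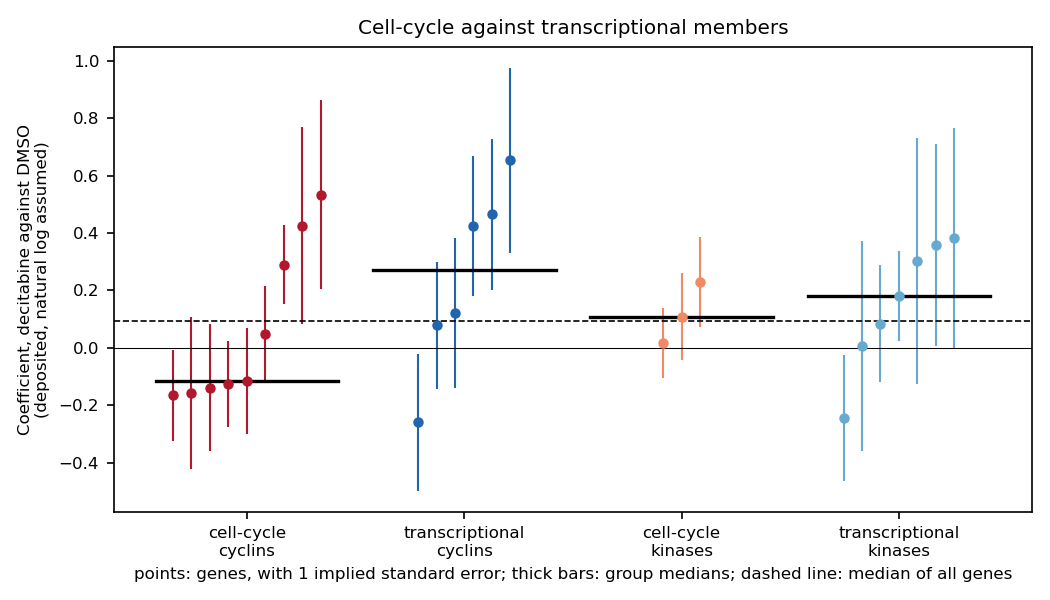
Coefficients of cell-cycle and transcriptional cyclins and kinases for decitabine against DMSO, with 1 implied standard error, group medians as thick bars and the median of all genes dashed. The cell-cycle cyclins have the lowest median, -0.12, and the transcriptional cyclins the highest, 0.27, but the ranges of the groups overlap.

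The groups differed in how precisely they were measured. The implied SE had a median of 0.16 in the cell-cycle and 0.26 in the transcriptional genes. The median cell-cycle cyclin or kinase lay at the 18.5th percentile of all genes, and the median transcriptional one at the 53.1st percentile. The smallest absolute z among called genes was 3.55, so the size that a gene needed to be called follows from its SE. CDK1 would have needed a coefficient of 0.44 (1.55-fold on the natural log scale), the median cell-cycle gene 0.58 (1.78-fold) and the median transcriptional gene 0.93 (2.54-fold). Observed coefficients below these sizes would not have been called at this precision. These are limits on the estimates, not on the true changes. Relative to its error CCNY came nearest to a call, with a z of 3.12.

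**Figure D3:**
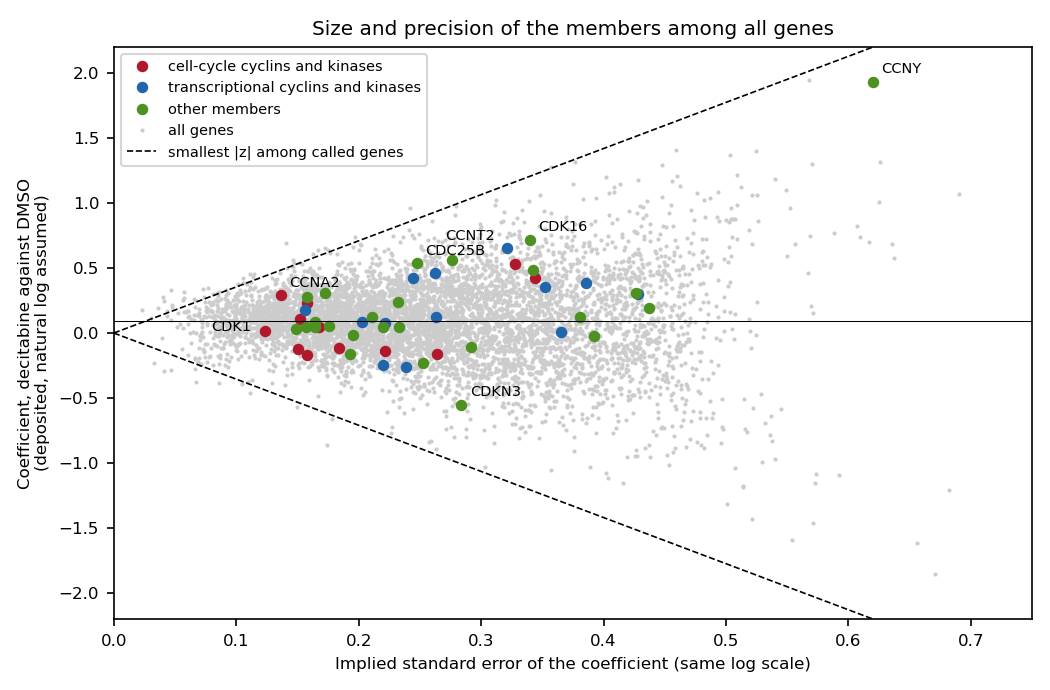
Coefficient for decitabine against DMSO against its implied standard error, for 6303 genes in grey and the cyclin, CDK and E2F-RB genes in colour, with 6 genes outside the axes. The dashed lines mark the smallest absolute z among called genes, 3.55, and every coloured point lies between them.

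Cyclins and kinases outside both branches included the member farthest from 0. CCNY (ENSG00000108100, chromosome 10 from 35247025 to 35572667), a membrane-anchored cyclin, had a coefficient of 1.93 ± 0.62 (unadjusted p = 0.00182, adjusted p = 0.119) in the authors' deposited table. On the natural log scale this is 6.92-fold, with an interval of 2.05 to 23.3. It ranked 4th from the top among all 6309 coefficients, but its implied SE was at the 99.8th percentile, so it was among the least precisely measured genes. Cyclin Y is a known activator of CDK14 and CDK16. CDK16 (ENSG00000102225, X chromosome from 47218303 to 47229997), a kinase best known from neurons and spermatogenesis, had 0.72 ± 0.34 (adjusted p = 0.424, unadjusted p = 0.0346) in the authors' deposited table, where CDK14 had -0.03 ± 0.39. Cyclin Y and CDK16 were thus the 2 highest of the 50 values and CDK14 was not with them. A relative of CDK16, CDK17, had 0.12 ± 0.38 in the authors' deposited table.

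The remaining cyclins gave small values. CCNI, an atypical cyclin, had 0.03 ± 0.15, CCNF, the F-box protein of an SCF ubiquitin ligase, had -0.01 ± 0.20, and CCNG1, a p53 target, had -0.10 ± 0.29 in the authors' deposited table. CCNI and CCNF were measured well enough that intervals of -0.26 to 0.32 and -0.39 to 0.37 bound them.

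**Figure D4:**
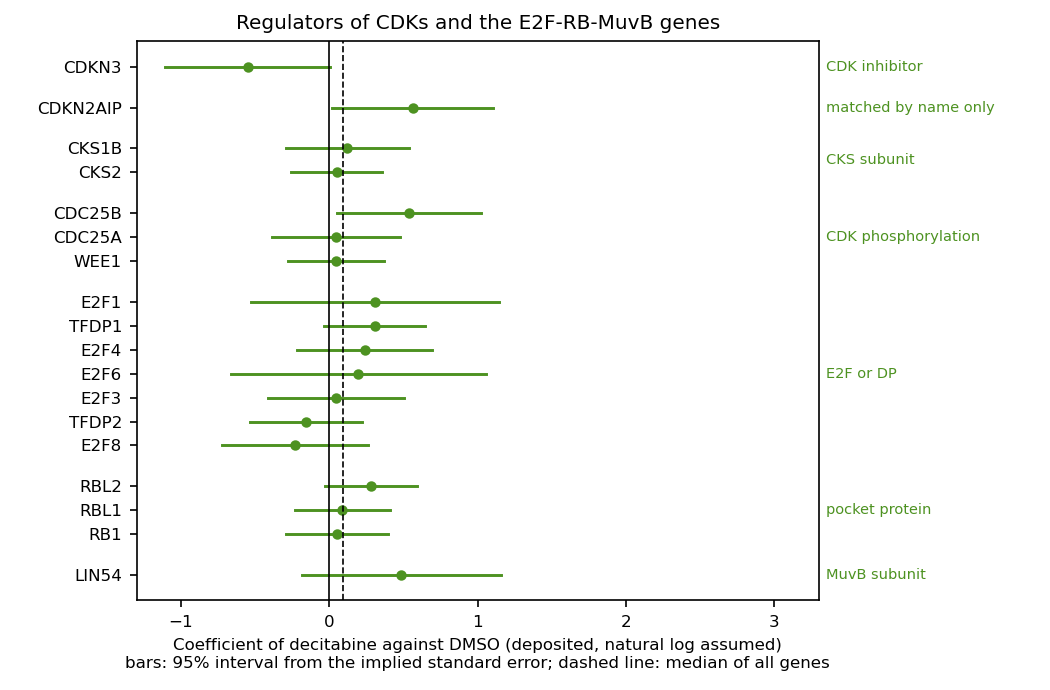
Coefficients of the CDK regulators and of the E2F, DP, pocket protein and MuvB genes for decitabine against DMSO, by role, drawn with 95% intervals from the implied standard error. The interval of CDKN3, from -1.11 to 0.01, lies below the median of all genes (dashed) but includes 0. Those of CDC25B and CDKN2AIP lie above 0 but include that median.

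CDK regulators held the lowest of the 50 values. CDKN3 is a phosphatase that removes the activating phosphate from CDKs, and it is the only gene of the 8 listed under the CDKN1, CDKN2 and CDKN3 names for inhibitors that had a value. Its coefficient was -0.55 ± 0.28 (unadjusted p = 0.0528, adjusted p = 0.489) in the authors' deposited table. Taken relative to the median of all genes it was -0.64, with an unadjusted p of 0.0231 and an adjusted p of 0.509, where the alternatives gave 0.406 to 1. CDKN2AIP, which the name pattern also catches, is a p53 and ARF-binding protein and no CDK inhibitor. In the authors' deposited table it had 0.56 ± 0.28 (unadjusted p = 0.0422, adjusted p = 0.458).

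The enzymes that set the inhibitory phosphate of CDK1 had unlike values. CDC25B, the phosphatase that starts CDK1 activation at the centrosome, had 0.54 ± 0.25 (unadjusted p = 0.0293, adjusted p = 0.406) in the authors' deposited table. CDC25A, its relative with roles in S phase too, had 0.05 ± 0.22, and WEE1, the kinase that opposes both, had 0.05 ± 0.16 there. The difference of CDC25B over CDC25A was 0.49, with an interval of -0.16 to 1.14. CKS1B and CKS2, the small subunits that dock CDK substrates, had 0.12 ± 0.21 and 0.05 ± 0.16 in the authors' deposited table. CDC25C and PKMYT1 were not analysed here.

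Among the transcription factors of the pathway, 5 of 7 E2F and DP genes had positive values, and 4 of 7 lay above the median of all genes, E2F3 being the one between. E2F1, an activator of S phase genes, had 0.31 ± 0.43 and E2F3, another activator, had 0.04 ± 0.23 in the authors' deposited table. The factors that mainly repress were on both sides of 0, with 0.24 ± 0.23 for E2F4, 0.19 ± 0.44 for E2F6 and -0.23 ± 0.25 for E2F8 in that table. TFDP1 and TFDP2, the DP partners that E2F1 to E2F6 need to bind DNA, had 0.30 ± 0.17 and -0.16 ± 0.19 there, a difference of 0.46 with an interval of -0.04 to 0.97. None of these genes had an unadjusted p below 0.05.

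The pocket proteins, which hold E2F factors in check, were among the better measured members. RB1, the retinoblastoma protein, had 0.05 ± 0.18, RBL1 (p107) had 0.09 ± 0.16 and RBL2 (p130) had 0.28 ± 0.16 in the authors' deposited table. The order runs from RB1 to RBL2, but the neighbours RBL1 and RBL2 differed by 0.19 with an interval of -0.25 to 0.64. LIN54, the subunit through which MuvB binds DNA, had 0.49 ± 0.34 there. LIN9, LIN37 and LIN52 were not analysed here, nor were E2F2, E2F5 and E2F7.

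Transcription, which translation efficiency divides out, is the level at which many of these genes are timed. Promoters of 45 of the 50 genes were matched in RefSeq (GRCh38.p14), from 250 bases before to 50 after the annotated start, and both strands were searched. For 41 of the 45 that start lies within 1000 bases of the upstream end of the whole gene. For CCND3, LIN54, CDK14 and RB1 the start is an internal one, up to 172699 bases inside the gene for RB1. Unmatched were CCND1, CCND2, CCNE2, E2F8 and WEE1. The cell cycle genes homology region (CHR, letters TTTGAA), the element that MuvB binds, was found in 11 of 45, which is 24.4%, against 10.2% of the 5145 matched promoters of all genes in the table. The CCAAT box, bound by NF-Y, was found in 46.7% against 38.5%, and an E2F site, TTTCGCGC or TTTGGCGC, in 13.3% against 2.59%. Over all 27305 promoters of the reference, the shares were 15.4% for the CHR, 35.7% for the CCAAT box and 1.18% for the E2F site. None of the 3 motifs contains another, and a match is a description of the sequence, not a site shown to be used. Between branches, the CHR was in 2 of 9 cell-cycle and 2 of 13 transcriptional genes, and the E2F site in 1 of each.

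In the promoters of CCNB2, CKS1B and CKS2, genes of G2 and mitosis, the CHR begins 29, 30 and 29 bases before the start and a CCAAT box lies a short way upstream of it. They are shown because the spacing is nearly the same in all 3. In the other members with a CHR match it began at other positions, between -226 (CDK19) and 25 (RBL2) relative to the start. Capitals mark the CHR and the CCAAT boxes on either strand, and each stretch ends at the base before the annotated start.
CCNB2 (chr15:59105046-59105145, plus strand): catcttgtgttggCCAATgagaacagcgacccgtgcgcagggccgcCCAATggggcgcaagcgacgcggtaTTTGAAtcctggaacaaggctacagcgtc
CKS1B (chr1:154974571-154974680, plus strand): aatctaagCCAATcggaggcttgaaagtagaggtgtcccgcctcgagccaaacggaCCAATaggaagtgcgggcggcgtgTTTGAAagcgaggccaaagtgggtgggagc
CKS2 (chr9:89311095-89311194, plus strand): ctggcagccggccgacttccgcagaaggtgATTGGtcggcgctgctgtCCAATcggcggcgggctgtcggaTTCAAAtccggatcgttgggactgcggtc
The coefficients of CCNB2, CKS1B and CKS2, -0.12, 0.12 and 0.05 in the authors' deposited table, all have intervals that include 0.

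The promoters of E2F1, CDC25A and RBL1 are shown as genes of the E2F loop itself that hold an E2F site before the start. TFDP1 holds one too, farther upstream at -120, and is not shown. Capitals mark the CCAAT boxes and the E2F sites in the spellings searched, so an E2F element spelled otherwise stays in lower case.
E2F1 (chr20:33686386-33686465, minus strand): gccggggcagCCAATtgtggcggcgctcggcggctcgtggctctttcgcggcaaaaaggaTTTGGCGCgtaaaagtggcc
CDC25A (chr3:48188418-48188497, minus strand): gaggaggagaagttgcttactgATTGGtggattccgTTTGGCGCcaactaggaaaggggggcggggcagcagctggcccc
RBL1 (chr20:37095998-37096077, minus strand): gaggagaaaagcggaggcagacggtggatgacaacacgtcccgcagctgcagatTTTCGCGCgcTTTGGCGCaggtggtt
RBL1 holds an E2F site in each spelling, 26 and 16 bases before the start. Their coefficients in the authors' deposited table, 0.31, 0.05 and 0.09 for E2F1, CDC25A and RBL1, all have intervals that include 0.

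The first bases of an mRNA bear on translation more directly: mRNAs that start with C and an unbroken run of pyrimidines (a TOP motif) answer to mTOR. A C followed by at least 4 pyrimidines at the annotated start was found in 3 of the 45 members, which is 6.67%, against 5.83% of all genes in the table. Across the table, the 300 genes with such a start had a median coefficient of 0.02, and the 4845 with another start one of 0.10. Of the 300, 5 were called, 1 higher and 4 lower. Of the 4845, 37 were called, 30 higher and 7 lower, beside 0.808% called among all genes. The 3 members are shown with CDK1 and CCNB1 beside them, which have none, as 20 bases from the annotated start with the pyrimidine run that follows a first C in capitals.
CCNC (chr6:99568795-99568814, minus strand): CTCTTCaatctcagcacctc
CCNI (chr4:77075970-77075989, minus strand): CTCCCTCCCCagccttcccc
CDK16 (chrX:47218303-47218322, plus strand): CTCTCCTCgaaaagtcatct
CDK1 (chr10:60778331-60778350, plus strand): agccgccctttcctctttct
CCNB1 (chr5:69167150-69167169, plus strand): ggcgtgctgcggcggaacgg
CCNC and CCNI had coefficients of 0.12 and 0.03 in the authors' deposited table and CDK16 one of 0.72, and their intervals overlap. Annotated starts need not be those used in HL-60 cells, and the match does not show that these genes make TOP mRNAs.

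Genes that act next to the cyclins and CDKs held 1 call. In a list of 28 E2F target genes, 23 had a value, with a median coefficient of 0.15, and 1 passed, beside 0.808% of all genes. In the authors' deposited table MCM4, a subunit of the replicative helicase, rose (0.35 ± 0.08, interval 0.20 to 0.50, adjusted p = 0.00262). With the table centred on the median of all genes, its coefficient from the authors' deposited table became 0.25 (adjusted p = 0.129, and 0.00197 to 0.129 over the alternatives). None fell, and next by p in the authors' deposited table was POLA1, of DNA polymerase alpha, with 0.47 ± 0.16 (adjusted p = 0.133). By unadjusted p below 0.05, 5 of the 23 were higher, which is 21.7% beside 8.35% of all genes in that direction. These shares are not at like precision, as the median implied SE was 0.12 in the list and 0.25 in all genes. A smaller coefficient was thus enough for a p below 0.05 in the list. After centring 2 were higher and 1 was lower, beside 3.69% and 4.25% of all genes.

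The other neighbouring lists held no call in either direction, beside 0.808% of all genes. Of 21 measured partners of transcriptional CDKs, with a median of 0.17 in the authors' deposited table, MED13L of the Mediator kinase module had 0.66 ± 0.20 (adjusted p = 0.0672) and NELFA, of the pausing factor NELF, had 0.62 ± 0.27 (adjusted p = 0.365). Among 16 mitotic entry kinases and phosphatases of the authors' deposited table, with a median of 0.05, NEK2 had 0.86 ± 0.32 (adjusted p = 0.203) and PLK1, the Polo kinase that activates CDC25, had 0.26 ± 0.14 (adjusted p = 0.499). The 18 genes of the anaphase-promoting complex, which marks cyclins A and B for destruction, had a median of 0.08, with 0.41 ± 0.13 (adjusted p = 0.118) for its subunit ANAPC5 and 0.40 ± 0.21 (adjusted p = 0.500) for its inhibitor FBXO5 in the authors' deposited table.

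In the ubiquitin ligases that degrade CDK regulators, 14 genes had a median of 0.12, with 0.36 ± 0.16 (adjusted p = 0.384) for CUL4A and 0.38 ± 0.20 (adjusted p = 0.489) for RBX1 in the authors' deposited table. The 9 measured partners of DREAM, MYB and FOXM1 had a median of 0.08, with 0.22 ± 0.11 (adjusted p = 0.485) for the deacetylase gene HDAC2 and 0.20 ± 0.12 (adjusted p = 0.583) for HDAC1 in the authors' deposited table. For 13 checkpoint genes the median was also 0.08. In the authors' deposited table ATM, which senses DNA breaks, had 0.34 ± 0.12 (adjusted p = 0.191) and CHEK1, the kinase that restrains CDC25, had -0.37 ± 0.19 (adjusted p = 0.489).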

How the data were processed

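The members, roles and neighbouring gene lists were chosen with earlier results of these data known. Reads were handled with Bowtie2, SAMtools 1.11 and UMI-tools 1.1.1 on build hg38, per the submitters' processing notes. Per the file headers, each deposited row holds the treatment term of a model, taken here as a natural log, with the p-value of its z test, that p-value after false discovery rate adjustment, and a q-value. Which program fitted the model, which genes were filtered and how libraries were scaled was not stated in any source used here, and depth is unknown. Benjamini-Hochberg adjustment of the p-values over all 6309 genes gave back the deposited adjusted values within 6.61e-14.

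Implied SEs, 95% intervals, centring on the median, group medians and differences between relatives were computed from the table with scipy 1.17.1 and pandas 2.3.3 in Python 3.11.15, and the recentring was tested on simulated data. Differences between relatives were added after the values were seen. Every member is named, and of each other list every call and the 2 genes with the smallest p-values. Symbols of all 50 members matched RefSeq, whose whole-gene spans are given. No table per library was used, so no count test was run.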

Additional observations from a re-analysis of the deposited data

How the results depend on the processing

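No member passed under any of the 7 alternatives that gave it a value, and the lowest value of any of them was 0.0988, the authors' q-value of CCNY. When the least precise 25% of genes were left out, 38 members were left, and the 12 without a value there included CCNY and CDK16. Centring on the median of all genes turned 12 of the 50 signs, all of coefficients between 0 and that median: CDK1 (-0.078), CDK19 (-0.089), CCNI (-0.066), E2F3 (-0.050), WEE1 (-0.050), CDC25A (-0.048), CCNB1 (-0.048), CKS2 (-0.046), RB1 (-0.044), CCNT1 (-0.017), CDK13 (-0.010) and RBL1 (-0.0079). Centring on the precision-weighted mean turned the same signs, to -0.073 for CDK1, -0.083 for CDK19, -0.061 for CCNI, -0.045 for E2F3, -0.045 for WEE1, -0.043 for CDC25A, -0.043 for CCNB1, -0.041 for CKS2, -0.038 for RB1, -0.011 for CCNT1, -0.0049 for CDK13 and -0.0026 for RBL1.

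Over the whole table, 40 higher and 11 lower calls became 5 and 32 after centring on the median, 6 and 31 after centring on the weighted mean, 13 and 6 at an adjusted p below 0.01, 66 and 20 below 0.1, and 12 and 6 with the Benjamini-Yekutieli adjustment. These changes follow from the shift of zero and from the thresholds. In the neighbouring lists the 1 higher call, MCM4, became 0 after either centring and 2 below 0.1. The difference between cell-cycle and transcriptional genes, -0.15, was -0.10 with weighted means, -0.10 without the imprecise genes and -0.089 without CCNL1, CCNL2, CDK11A and CDK11B. CCNH and CDK7 could also be placed in the cell-cycle group, but neither has a value, so that choice was not tested. No paired analysis was possible because no column belongs to a replicate, and leaving out a replicate was not run for that reason. The implied standard error limits what could be detected, and depth is unknown.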
